A study of Drosophila melanogaster with 42 samples.

Results

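The sites described here are the X-linked MSL3 peaks of M1[WT] males that have no MSL2 peak of the same flies beside them. They were chosen from the deposited male MSL3 list as peaks on the X chromosome narrower than 4000 bp whose edges lie more than 500 bp from every male MSL2 peak. There are 345 of them, among 1829 male MSL3 peaks on the X chromosome and 6129 in the whole list. Without the width limit, 352 of the 1829 X-linked peaks (19.2%) lack a male MSL2 peak within 500 bp. The sites were therefore selected on their MSL3 width and on their distance to MSL2, and these values, with the MSL3 strength, are given as a description only.

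The male-specific lethal (MSL) complex raises transcription of the single X chromosome of *Drosophila* males. MSL1 is its scaffold, and MSL2 is the RING-finger subunit that is normally made only in males and takes the complex to high-affinity 'entry' sites (HAS), many of which carry GA-rich sequence. MSL3 is the chromodomain subunit, associated with the spread of the complex over transcribed genes and with histone H3 methylated at lysine 36, a mark that rises toward the 3′ ends of active genes. MSL1 and MSL3 are also made in females, where MSL2 is normally absent because SXL blocks its translation.

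Binding was measured by ChIP-seq, in which cross-linked chromatin is pulled down with an antibody and its DNA is sequenced. The M1[WT] males lacked endogenous MSL1 (*msl-1*-) and were homozygous for *Ubi:msl-1WT*, and the M1[WT]+MSL2 females had the same *msl-1*- background with 1 copy each of *Ubi:msl-1WT* and *Ubi:msl-2WT-FLAG*. All flies were whole adults labelled as 3 days old, so the peaks average over all tissues, and the transgenes sit at the ZH-86Fb site under a ubiquitous promoter rather than that of the native genes. For the male MSL3 libraries the genotype label names the line with MSL2, whereas their titles and the methods name M1[WT], which was used. Each of the 6 peak lists (MSL1, MSL2 and MSL3 in each sex) comes from 2 biological replicates, except male MSL1, which comes from 1. It holds 21980 peaks against 6110 for male MSL2, and, unlike the others, carries no values from a test of reproducibility between inputs. Those of the females are shorter, with 905 (MSL1), 2460 (MSL2) and 1546 (MSL3) peaks. The X chromosome carries 4317 peaks of male MSL1, 2351 of male MSL2, and 522, 1577 and 1100 of female MSL1, MSL2 and MSL3. The lists carry no read numbers, so sequencing depth is unknown. There is 1 list per protein and sex, so differences between flies could not be tested. Shares are given with 95% Wilson intervals and differences between sets of peaks with 95% Newcombe intervals; both cover only the counting of peaks, which are not independent where they are neighbours.

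The sequences below show the DNA at the summits of the 3 strongest sites, of the site farthest from MSL2, and of the site with the highest female MSL2 −log10 p, 100 bp to each side of the summit. They are plus-strand bases of the dm6 X chromosome (RefSeq Release 6), 5′ to 3′, and capitals would mark any of the motifs searched: TATCGATA (the core of the DNA replication-related element), CAGCTG (an E-box), and GAGAGAGA or AGAGAGAG with their reverse complements TCTCTCTC and CTCTCTCT. For contrast, the last line shows the DNA beside the male MSL2 summit nearest to the strongest site, limited to bases outside annotated UTRs, so it starts 16 bp past that summit.
drd site, intergenic, chrX:15137342-15137542: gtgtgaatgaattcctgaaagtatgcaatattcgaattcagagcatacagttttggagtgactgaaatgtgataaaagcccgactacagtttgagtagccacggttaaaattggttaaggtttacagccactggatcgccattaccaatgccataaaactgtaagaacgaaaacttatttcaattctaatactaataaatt
Sxl site, intergenic, chrX:7098071-7098271: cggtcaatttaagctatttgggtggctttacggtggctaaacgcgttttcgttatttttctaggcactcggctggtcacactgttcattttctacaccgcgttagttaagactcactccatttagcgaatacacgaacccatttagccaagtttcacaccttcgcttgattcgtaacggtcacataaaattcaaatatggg
CG2076 site, coding exon, chrX:11091346-11091546: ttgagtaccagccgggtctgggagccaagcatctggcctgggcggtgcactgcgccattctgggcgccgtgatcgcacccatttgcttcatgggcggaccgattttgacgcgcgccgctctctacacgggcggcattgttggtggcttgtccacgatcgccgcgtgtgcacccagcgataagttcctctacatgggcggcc
CG3603 site, coding exon, chrX:2948563-2948763: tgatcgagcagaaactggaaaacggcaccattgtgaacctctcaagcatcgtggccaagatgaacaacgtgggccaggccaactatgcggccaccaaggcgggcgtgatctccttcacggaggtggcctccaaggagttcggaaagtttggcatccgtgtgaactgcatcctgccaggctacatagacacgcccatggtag
CG1677 site, intron, chrX:7312231-7312431: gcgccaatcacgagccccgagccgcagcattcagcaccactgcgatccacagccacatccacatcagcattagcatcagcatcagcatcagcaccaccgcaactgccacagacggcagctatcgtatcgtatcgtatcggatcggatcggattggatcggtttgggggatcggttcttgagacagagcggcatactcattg
MSL2 neighbour of the drd site, chrX:15139368-15139452: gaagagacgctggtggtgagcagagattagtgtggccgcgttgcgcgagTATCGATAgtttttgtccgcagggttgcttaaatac
None of the 5 MSL3 windows holds a motif in capitals, and the stretch beside the MSL2 summit holds TATCGATA, which is rare at both kinds of MSL3 peak (0.29% of the sites and 0.577% of the X-linked MSL3 peaks under 4000 bp that have MSL2).

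The 345 sites were mostly modest MSL3 peaks. Their fold enrichment over IgG at the summit ranged from 1.61 to 13.7 with a median of 3.06, whereas the 1213 X-linked MSL3 peaks under 4000 bp that have MSL2 within 500 bp (the MSL2-associated peaks) had a median of 5.01. Their median width was 906 bp, against 1186 bp for the MSL2-associated peaks. The −log10 p of the sites ranged from 3.83 to 404 with a median of 30.6. For each peak the list also carries −log10 p in 2 inputs, which are not named and may be replicates or pseudoreplicates. In all 345 sites the 2 inputs differed by less than 2-fold, as they did in 98.3% of the MSL2-associated peaks. The medians of the inputs at the sites were 17 and 18. The list was itself filtered for reproducibility between inputs, which favours such agreement.

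The nearest male MSL2 summit lay between 811 and 186129 bp away, with a median of 2902 bp and quartiles of 1872 and 4860 bp. By distance, 8 sites had an MSL2 summit within 1 kb, 91 at 1 to 2 kb, 163 at 2 to 5 kb, 41 at 5 to 10 kb, 21 at 10 to 20 kb, 18 at 20 to 50 kb and 3 beyond 50 kb. Most of the sites were thus within 5 kb of an MSL2 summit, and a small group of 42 stood 10 kb or more away. Distances were not computed for X positions at large, of which 20.2% lie within 500 bp of a male MSL2 peak. The values therefore do not show whether the sites are nearer to MSL2 than the rest of the chromosome. The 267 distinct MSL2 peaks that were nearest to a site had a median fold enrichment, counted once per site, of 2.42, ranging from 1.25 to 114, against 2.75 for all X-linked male MSL2 peaks. Of the 315 sites inside protein-coding genes, 146 had their nearest MSL2 summit inside the same gene, and in 156 of the 315 (49.5%, 95% interval 44 to 55) that summit lay on the side of the gene's start.

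Next to a site, the nearest other male MSL3 peak was an MSL2-associated peak in 169 cases, another of the 345 sites in 142 and an MSL3 peak of 4000 bp or more in 34. The median gap to that neighbour was 693 bp, and 297 sites (86.1%) had one within 5 kb. Neighbours were not computed for the other X-linked MSL3 peaks. The values therefore do not show whether the sites lie closer to each other, or to other MSL3 peaks, than those do. The sites were found along the whole chromosome, at 74, 58, 77, 111 and 25 in successive stretches of 5 Mb, the last one incomplete. They made up 29.7% of the X-linked MSL3 peaks under 4000 bp in the first stretch and 15.9% in the second, the highest and the lowest share.

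**Figure D1:**
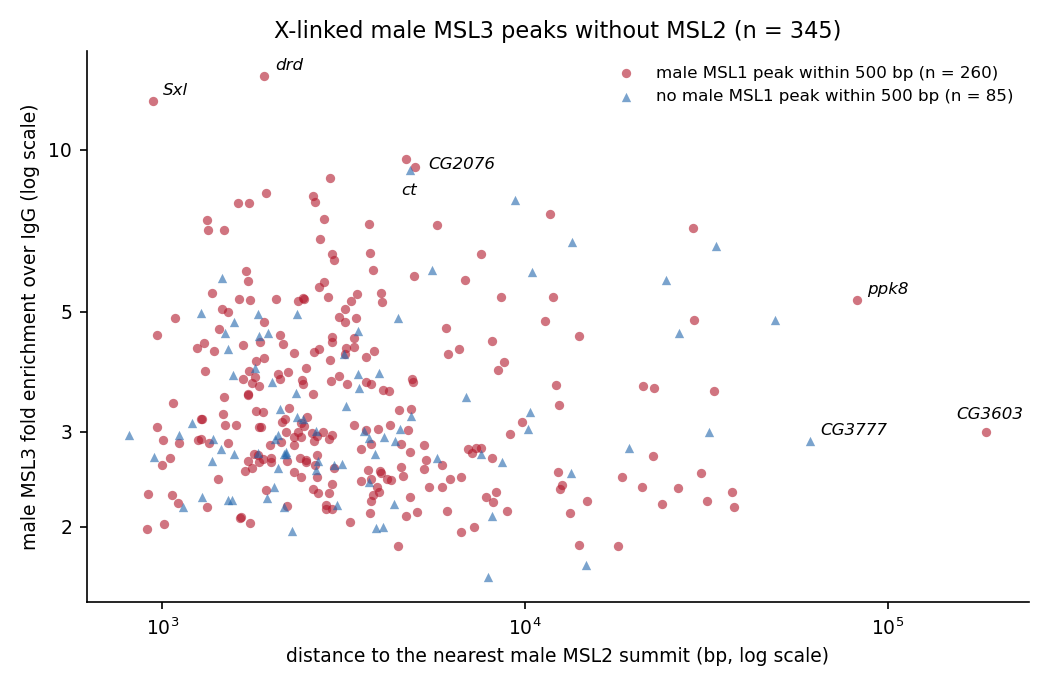
Fold enrichment of male MSL3 over IgG at the summit (vertical, log scale) against the distance to the nearest male MSL2 summit in bp (horizontal, log scale) for the 345 sites, with circles for the 260 that have a male MSL1 peak within 500 bp and triangles for the 85 that do not. Both kinds are spread over all distances, the strongest sites (*drd*, fold 13.7, and *Sxl*, fold 12.3) lie within 2 kb of MSL2, and the site in *CG3603* lies 186129 bp away.

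The values at the edges of the selection were as follows. The sites with the smallest gaps to a male MSL2 peak were in *CG8128* (gap 502 bp, fold 7.08) and *CG12531* (gap 506 bp, fold 2.3), and the nearest excluded peaks were in *Swt1* (gap 500 bp, fold 6.14) and *cv* (gap 499 bp, fold 5.02). The widest sites were in *Myo10A* (3953 bp, fold 1.85) and *trol* (3920 bp, fold 2.17), and the narrowest excluded peaks without MSL2 were in *CG43658* (4258 bp, fold 5.31) and *Pdzd8* (4288 bp, fold 2.76). The gap limit cuts through a continuous range, since 94 of the 345 sites had a gap of 1000 bp or less.

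MSL1, the scaffold of the complex, was found at most of these sites. A male MSL1 peak lay within 500 bp of 260 of the 345 sites (75.4%, 95% interval 70.6 to 79.6), against 93.0% of all 1829 X-linked male MSL3 peaks. The share was 96.5% of the MSL2-associated peaks, a difference of −21.1 percentage points (−26 to −16.7). It was 79.2% of the 2332 autosomal MSL3 peaks under 4000 bp without MSL2, a difference of −3.84 points whose interval (−8.91 to 0.736) includes 0. Of all positions on the X chromosome, 29.4% lie within 500 bp of a male MSL1 peak. Positions are single bases and the sites are intervals, so a site comes near a peak more readily than a position does. The MSL1 peaks at the sites were weak within their list. Their fold enrichment had a median of 1.89 (1.18 to 3.89), the median rank was 8024 of 21980, and the highest rank was 1185, at *Sxl*. Where several MSL1 peaks overlapped a site, only the first in the list was counted, so stronger ones can be left out. In 246 cases the MSL1 peak overlapped the MSL3 peak. Over the 260 sites the nearest MSL1 summit was a median of 51 bp from that of MSL3. That summit need not belong to the MSL1 peak whose fold and rank were counted. Of the 260 MSL1 peaks, 4 lay within 500 bp of a male MSL2 peak. This low count follows largely from the rule, since most of these MSL1 peaks overlap a site. When the MSL1 list was limited to as many of its strongest peaks as the MSL3 list holds, 35.4% of the sites and 89.6% of the MSL2-associated peaks kept an MSL1 peak. The share with MSL1 was 75 to 80.5% in every distance class up to 10 kb from MSL2, and 66.7%, 72.2% and 66.7% in the classes beyond it, which hold 21, 18 and 3 sites.

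In M1[WT]+MSL2 females, which make MSL2 from a transgene, few of the sites had a peak. Female MSL2 was within 500 bp of 56 sites (16.2%, 95% interval 12.7 to 20.5), against 52.3% of all X-linked male MSL3 peaks. The difference from the MSL2-associated peaks (56.5%) was −40.2 points (−44.7 to −35.1). The share was 14.8 points higher (11.3 to 19.1) than at the autosomal MSL3 peaks without MSL2 (1.42%), and 10.6% of X positions lie within 500 bp of a female MSL2 peak. Neither comparison is like for like. X positions are single bases and the sites are intervals, and the X chromosome holds 64.1% of female MSL2 and 71.2% of female MSL3 peaks. Of the 56 female MSL2 peaks, counted per site, 43 overlapped the site itself, and 50 lay more than 500 bp from every male MSL2 peak, which the rule favours. Female MSL3 was within 500 bp of 52 sites (15.1%, 11.7 to 19.2), against 42.0% of all X-linked male MSL3 peaks and 9.36% of X positions. The difference from the MSL2-associated peaks (39.7%) was −24.6 points (−29 to −19.6), and the share was 9.88 points above the autosomal set (5.19%; 6.36 to 14.1). Female MSL1 was within 500 bp of 11 sites (3.19%, 1.79 to 5.62), against 28.2% of all X-linked male MSL3 peaks, 2.66% of the autosomal set and 5.27% of X positions. In all, 252 sites (73%) had no female peak, 36 had MSL2 alone, 29 MSL3 alone, 17 MSL2 with MSL3, 5 MSL1 alone, 3 MSL1 with MSL3 and 3 all of them. Over all X-linked male MSL3 peaks, 34.8% had no female peak, and 16.1% had MSL2 alone, 9.08% MSL3 alone and 11.8% MSL2 with MSL3, so MSL3 alone was about as frequent at the sites (8.41%). The female list is shorter than the male list for each protein, so a missing female peak is not absence of binding.

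**Figure D2:**
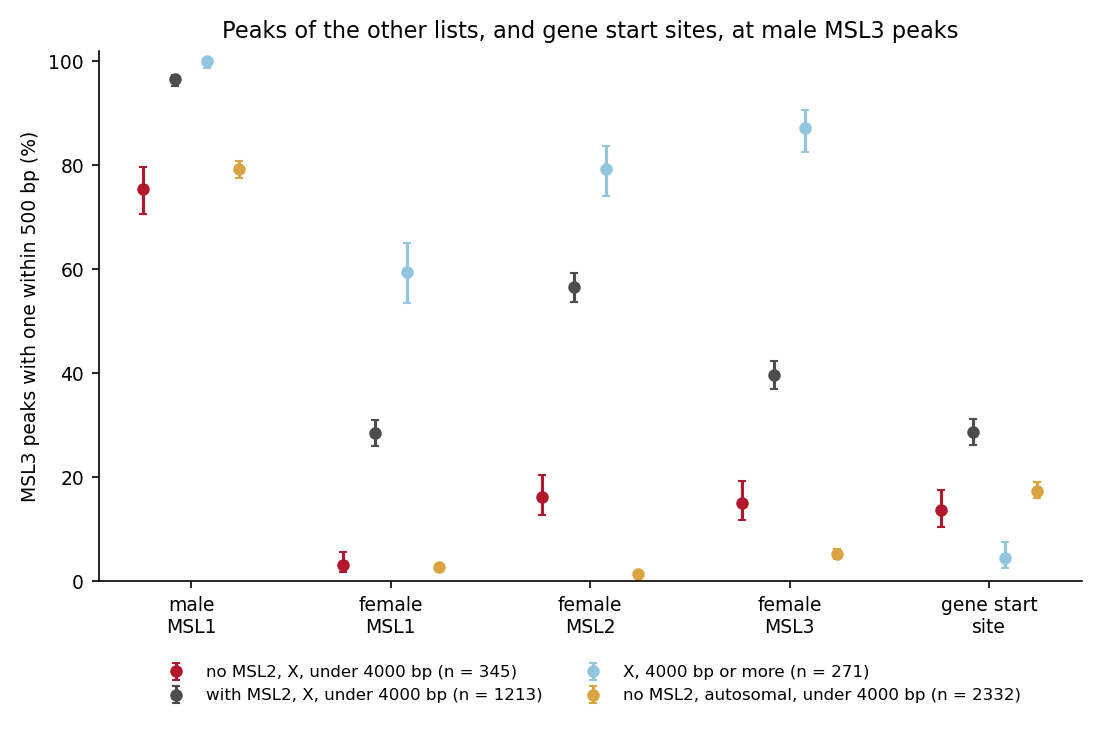
Percentage of male MSL3 peaks with a peak of each other list within 500 bp, or with their summit within 500 bp of an annotated transcript start (drawn as gene start site). The sets are the 345 sites, 1213 MSL2-associated peaks, 271 X-linked peaks of 4000 bp or more, and 2332 autosomal peaks under 4000 bp without MSL2. Bars are 95% Wilson intervals over peaks. For male MSL1 and female MSL1 the sites are near the autosomal set, and for female MSL2 and MSL3 they lie between it and the MSL2-associated peaks.

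Since the sites were weaker MSL3 peaks than the MSL2-associated ones, the shares were also compared within 4 equal classes of MSL3 −log10 p, cut over the 1558 X-linked peaks under 4000 bp, a comparison added after the data were seen. The classes, from weakest to strongest, held 159, 103, 71 and 12 of the sites. Male MSL1 was at 69.2%, 75.7%, 85.9% and 91.7% of the sites against 90.4%, 95.1%, 98.4% and 99.5% of the MSL2-associated peaks. Female MSL2 was at 12.6%, 13.6%, 21.1% and 58.3% of the sites against 40%, 48.8%, 59.7% and 69.6%. The intervals of sites and MSL2-associated peaks did not overlap in the first 3 classes for either protein. Female MSL3 was at 6.92% and 8.74% of the sites in the 2 weaker classes, against 14.3% and 23.3%, but at 33.8% and 66.7% in the 2 stronger ones, against 33% and 73% of the MSL2-associated peaks.

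**Figure D3:**
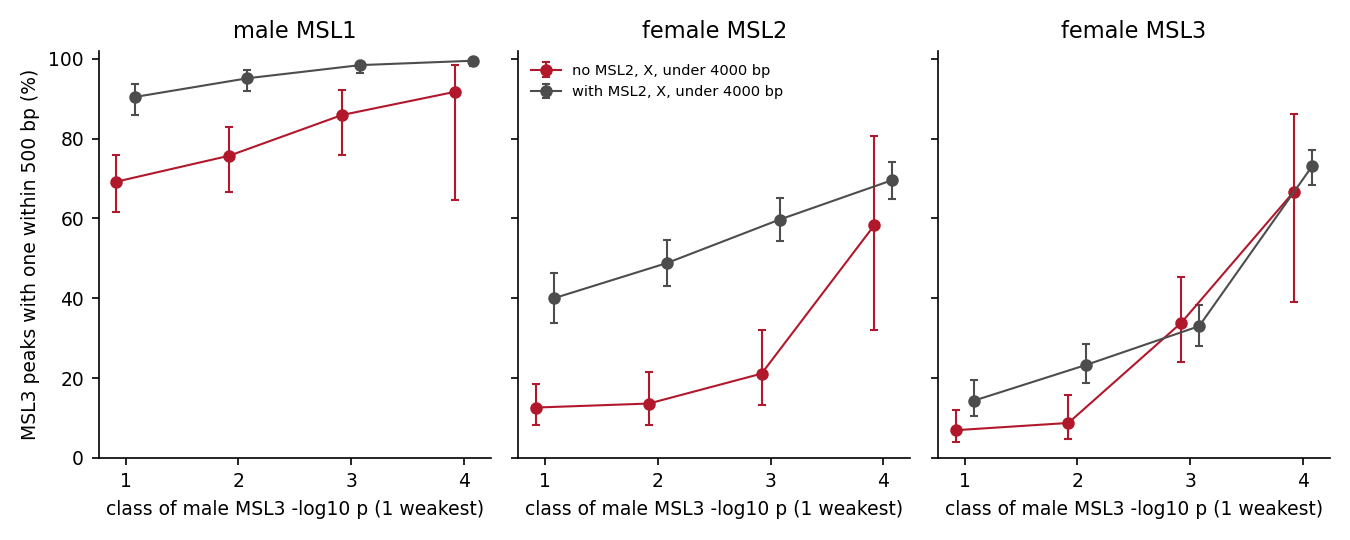
Percentage of X-linked male MSL3 peaks under 4000 bp with a male MSL1, female MSL2 or female MSL3 peak within 500 bp, in 4 equal classes of male MSL3 −log10 p from weakest (1) to strongest (4); red, the 345 sites; grey, the MSL2-associated peaks; bars, 95% Wilson intervals. The intervals are apart for MSL1 and MSL2 in classes 1 to 3, and the values meet for MSL3 in the 2 stronger classes.

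The sites were mainly in gene bodies. The summit lay in a coding exon in 245 cases (71%, 95% interval 66 to 75.5), in an intron in 37, in a UTR in 34, outside genes in 26 and in another exon in 3. Coding exons held 57.5% of the summits of MSL2-associated peaks, 13.5 points less (7.76 to 18.8), and 65% of those of all X-linked MSL3 peaks. The share was 90.4% for the MSL3 peaks of 4000 bp or more and 74.6% for the autosomal peaks without MSL2, from which the sites differed by −3.6 points with an interval that includes 0 (−8.89 to 1.28). Within 500 bp of the start of any annotated transcript, which can lie inside a gene, were 47 summits (13.6%, 10.4 to 17.6). The share was 22.2% of all X-linked male MSL3 peaks, 28.6% of the MSL2-associated peaks (difference −15, −19.1 to −10.3) and 12.6% of all X positions. Along protein-coding genes, taken from start (0) to end (1), the median position of the 315 summits inside them was 0.739, against 0.528 for the MSL2-associated peaks. When genes were divided in 3 equal stretches, 187 summits (59.4%, 53.9 to 64.6) were in the 3′-most one, 24.7 points (18.5 to 30.7) more than for the MSL2-associated peaks (34.7%). The share in that stretch was 56% for the MSL3 peaks of 4000 bp or more, so the position near gene ends was shared with the widest MSL3 peaks.

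**Figure D4:**
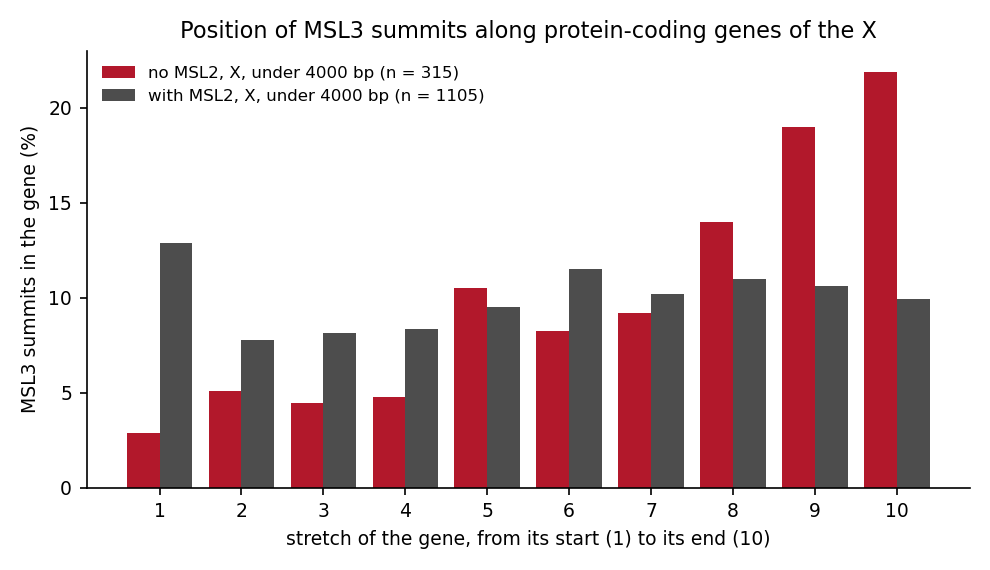
Percentage of MSL3 summits inside X-linked protein-coding genes that fall in each of 10 equal stretches of the gene, from its start (1) to its end (10); red, 315 sites; grey, 1105 MSL2-associated peaks. The sites rise from 2.86% in the first stretch to 21.9% in the last, while the MSL2-associated peaks stay between 7.78% and 12.9%.

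The share of sites with MSL1 differed with where the summit lay. A male MSL1 peak was within 500 bp of 218 of the 245 sites with a coding-exon summit (89%, 95% interval 84.4 to 92.3) and of 42 of the other 100 (42%, 32.8 to 51.8), a difference of 47 points (36.2 to 56.8). At the MSL2-associated peaks the same shares were 99.4% and 92.4%. Among sites outside coding exons, MSL1 was at 35.3% of the summits in UTRs, 37.8% of those in introns and 57.7% of those outside genes. Sites outside coding exons were also narrower, with a median width of 443 bp against 1140 bp, while their median fold was 3.09 against 3.02. Within one class of width, 500 to 1000 bp, MSL1 was at 62 of 72 coding-exon sites (86.1%, 76.3 to 92.3) and 11 of 29 others (37.9%, 22.7 to 56). Below 500 bp it was at 19 of 29 (65.5%, 47.3 to 80.1) and 23 of 60 (38.3%, 27.1 to 51), intervals that overlap. From 1000 to 4000 bp it was at 137 of 144 (95.1%, 90.3 to 97.6) and 8 of 11 (72.7%, 43.4 to 90.3).

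Viewed the other way, the 85 sites without MSL1 had 31.8% of their summits in coding exons, 27.1% in introns and 25.9% in UTRs, whereas the 260 with MSL1 had 83.8%, 5.38% and 4.62%. Both kinds were equally far from MSL2, with median summit distances of 2965 and 2894 bp, and had similar median folds of 2.96 and 3.09. The sites without MSL1 were narrower, with a median width of 451 bp against 1102 bp, and their median −log10 p was 24.4 against 33.9. A wide peak comes within 500 bp of another more readily, and the female shares that follow were not compared within widths. Female MSL2 was at 4.71% of the sites without MSL1 and 20% of those with it, a difference of 15.3 points (7.21 to 21.3). Female MSL3 was at 8.24% and 17.3%, a difference of 9.07 points (0.254 to 15.6). By summit position, female MSL3 was at 22% of the sites outside coding exons and 12.2% of those inside them, a difference of −9.76 points for coding exons (−19.5 to −1.33), whereas for female MSL2 the difference of 3.14 points had an interval that includes 0 (−6.02 to 10.7).

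**Figure D5:**
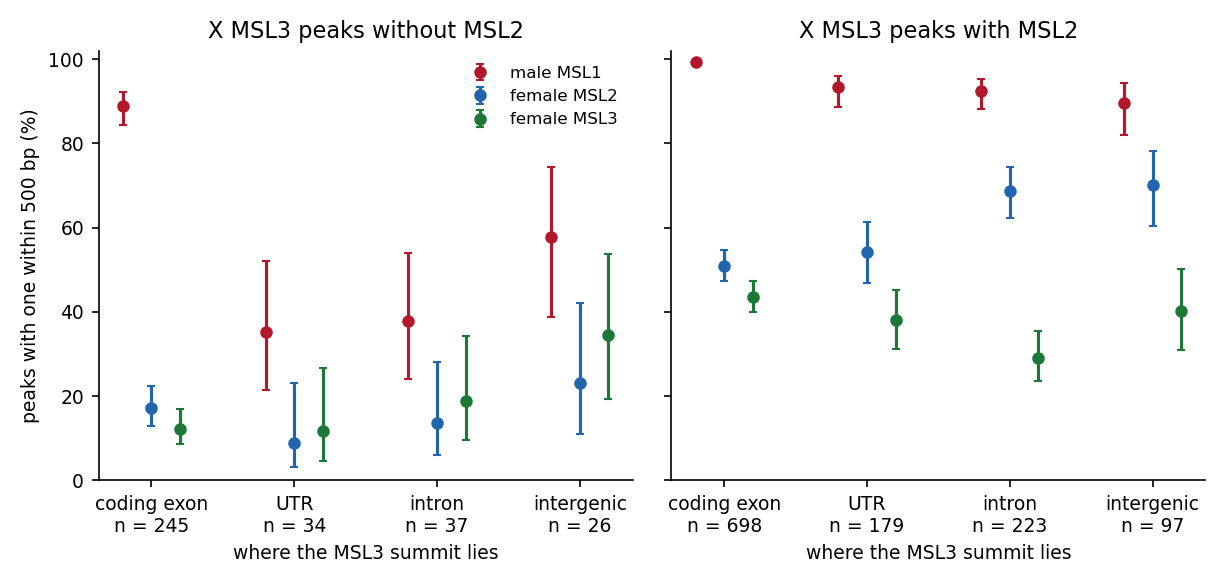
Percentage of X-linked male MSL3 peaks under 4000 bp with a male MSL1, female MSL2 or female MSL3 peak within 500 bp, by where the MSL3 summit lies, for the 345 sites (left; the 3 in other exons are not drawn) and the MSL2-associated peaks (right); bars are 95% Wilson intervals. Male MSL1 falls from 89% in coding exons to 35.3% in UTRs at the sites and stays at 89.7% or more at the MSL2-associated peaks.

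The 55 sites with a fold of 5 or more were also divided by summit position. Of the 38 with a coding-exon summit, 37 had male MSL1, 9 female MSL2 and 15 female MSL3. Of the 17 others, 10 had male MSL1, 7 female MSL2 and 12 female MSL3, and their median width was 483 bp against 1226 bp. The limit of 5 was set after the values were seen.

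The strongest site lay between genes, nearest to *drd*, which encodes a membrane protein needed for normal adult life span, and within 500 bp of *RpL37-1*, a protein gene of the large ribosomal subunit. It spanned chrX:15134707-15137684, with a fold of 13.7 and −log10 p of 404, and 195 and 211 in the 2 inputs. It ranked 294 among the 1829 X-linked MSL3 peaks. Its summit was 1910 bp from the nearest MSL2 summit, which had a fold of 2.69. The female MSL3 peak there had a fold of 7.71, ranked 66 of 1546, and its summit was 2 bp away. The first overlapping peaks of male MSL1 (fold 1.72) and female MSL2 (fold 1.87) had their summits 1391 and 2537 bp from that of MSL3. Summits of other peaks of these lists may lie nearer.

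*Sxl*, the switch gene of sex determination whose product represses *msl-2* in females, lay beside the second strongest site. This site, chrX:7097924-7098340, was 417 bp wide with a fold of 12.3 and −log10 p of 340 (162 and 182 in the inputs). Its summit lay outside the annotated gene, 118 bp from a start site and 939 bp from an MSL2 summit of fold 2.38. It was 1 of the 3 sites with peaks of all female proteins: MSL1 at fold 4.75, MSL2 at 3.27 and MSL3 at 6.93, all with summits within 61 bp. Male MSL1 was also present there, at fold 3.89, the highest of the male MSL1 values counted at the 345 sites. A further site inside *Sxl*, chrX:7084466-7086269 in a coding exon, had a fold of 3.3 and no peak of male MSL1 or of any female protein within 500 bp.

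The other 6 of the 8 strongest sites fell into both classes. In *CG2076* (fold 9.28, −log10 p 300, inputs 162 and 141) the summit was in a coding exon with male MSL1 6 bp away at fold 2.75 and female MSL2 90 bp away at fold 2.09. *CG2247* (fold 7.97, inputs 111 and 101) had male MSL1 at fold 2.2 and no female peak. *ph-p*, a Polycomb-group gene with a close tandem copy that can share reads, had a coding-exon site of fold 8.21 (inputs 116 and 119) with male MSL1 at fold 2.32 and no female peak. Outside coding exons, the sites near *CG3626* (fold 9.61, inputs 126 and 110) and in a UTR of the copper transporter gene *Ctr1A* (fold 8.87, inputs 93.5 and 110) had female MSL3 summits 9 and 43 bp away, at folds of 4.84 and 2.67. The *CG3626* summit was 50 bp from a start site. At *CG3626* the first overlapping peaks of male MSL1 (fold 1.64) and female MSL2 (fold 2.19) had their summits 514 bp away. The *Ctr1A* summit, at 6667076, was close to a male MSL1 summit at 6667098 (fold 2.67). A female MSL2 summit lay at 6666976 (fold 2.28). Other overlapping peaks of these lists at *Ctr1A* had summits 1848 and 1847 bp away, at folds of 2.21 and 2.3. The site near *ct*, the homeodomain gene *cut*, was 332 bp wide with a fold of 9.18 (inputs 112 and 105). It had no male MSL1, female MSL1 or female MSL2 peak, and female MSL3 of fold 3.28 was 23 bp away.

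The 5 sites with the highest female MSL3 −log10 p all had their summits outside genes, but 3 of them were close to a start site. The distances to the nearest start site were 69 bp (*DAAM*), 95 bp (*RpL17*), 118 bp (*Sxl*), 1925 bp (*drd*) and 3787 bp (*upd2*). After *drd* (130) came those near *upd2*, which encodes a JAK/STAT ligand (male fold 7.16, female fold 6.92), and *DAAM*, which encodes a formin (male fold 7.6, female fold 6.21). The female summits there were 2 and 0 bp from the male ones. Neither had a female MSL2 peak, and male MSL1 was at folds of 1.56 and 1.76. The *upd2* site was 29054 bp and the *DAAM* site 11695 bp from a male MSL2 summit. *Sxl* followed, whose −log10 p of 108 was close to the 109 of *DAAM* and whose female fold of 6.93 was above both, and then the site next to *RpL17*, a ribosomal protein gene, with a fold of 5.23 in males and 4.87 in females. That site had all the other proteins too: male MSL1 at 2.51, female MSL1 at 2.77 and female MSL2 at 2.55. In all, 32 of the 52 sites with female MSL3 had the male and female summits within 50 bp. The nearest female MSL3 summit was a median of 33 bp away at the 52 sites and 51 bp at the 481 MSL2-associated peaks with female MSL3. Of the 52 sites, 32 had no female MSL2 peak within 500 bp. Of all X-linked male MSL3 peaks, 769 had female MSL3, 166 of them without the other female proteins and 32 with female MSL1 only.

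Female MSL2 had its highest −log10 p at an intronic site of *CG1677*. The −log10 p of each female list is that of its first input, so this order rests on 1 input. Its fold was 3.41, rank 595 of 2460, with −log10 p of 35.8 and 16.3 in the 2 female inputs, and in the second input *CG8128* (35.6), *Sxl* (30.2) and *Mur2B* (30) stood above it. The female MSL2 summit in *CG1677* was 2 bp from the male MSL3 summit. The male MSL3 fold there was 2.83, male MSL1 was at 2.65, and the nearest male MSL2 summit was 1981 bp away. Next came an intronic site of the mucin-related gene *Mur2B*, with female MSL2 at fold 3.07 and female MSL3 at 3.29. It was 24416 bp from male MSL2 and had no male MSL1 peak. After *Sxl* came coding-exon sites of *Gip* (2.86) and *inaF-D* (2.5), with male MSL1 at folds of 3.05 and 1.76. Female MSL1 was highest next to *Mur11Da*, another mucin-related gene, at fold 8.93 (rank 101 of 905, inputs 163 and 146) and 1 bp from the MSL3 summit, which was 391 bp from the nearest start site. Male MSL1 was at fold 3.13 and male MSL3 at 4.84 there, without female MSL2. Female MSL1 came next at *Sxl*, and then at 2 sites of *Tis11*, which encodes an RNA-binding protein of mRNA decay, that shared one female MSL1 peak of fold 3.64, and at *CG11444* (fold 3).

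Of the sites without male MSL1, the strongest after *ct* was in an intron of *trol*, which encodes the basement membrane proteoglycan perlecan. It was 313 bp wide, had a fold of 8.06 (inputs 90.7 and 82.4), and had no peak of any other list within 500 bp. An intronic site of *CG43658* (fold 6.73) had female MSL3 at fold 4.28 with its summit 5 bp away. *Mur2B* (fold 5.72) followed, and an exon of *lncRNA:CR43838* (fold 6.63) had female MSL3 at fold 2.53, 11 bp away, and lay 33579 bp from male MSL2. Of these 5 strongest sites without MSL1, 4 had female MSL3, and 1, *Mur2B*, had female MSL2. Over all 85 sites without MSL1 the shares were only 8.24% and 4.71%, against 17.3% and 20% of the 260 sites with MSL1.

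The sites farthest from male MSL2 were of both kinds as well. The *CG3603* site, 186129 bp away, lay in a coding exon with a fold of 3 and male MSL1 58 bp away at 1.89. The site in *ppk8*, a gene of the pickpocket family of sodium channels, was 82049 bp away, with a fold of 5.25, male MSL1 at 1.5 and female MSL3 at 2.4. The intronic site of *CG3777* (60881 bp, fold 2.88) and the site near *lncRNA:CR45506* (48983 bp, fold 4.84) had no peak of any other list. The fifth, in a coding exon of *trol*, was 37523 bp away with a fold of 2.17 and male MSL1 at 1.24.

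The 319 summits inside genes fell in 253 genes, of which 48 held more than 1 site. Of these 253 genes, 159 (62.8%) overlapped a male MSL2 peak elsewhere along their length and 94 did not. They were long genes, with a median of 9021 bp against 2521 bp for the 2196 protein-coding genes of the X chromosome, and 113 of them also held an MSL2-associated peak. A longer gene holds a summit more readily. The length of genes with an MSL2-associated peak was not computed, so length does not set the genes with a site apart. By the wider criterion of a peak within 500 bp, 1415 of all 2196 protein-coding genes had male MSL2. The share overlapping MSL2 was not computed over all genes, so the 62.8% does not set the genes with a site apart. The most sites in a gene were 4, in *shi*, *l(1)G0196*, *Rab3-GEF* and *trol*. In *shi*, which encodes dynamin, the folds from start to end of the gene were 2.65, 3.01, 5.73 and 5.94, at 2679, 3594, 6813 and 10447 bp from MSL2, and only the third had male MSL1 (fold 1.33). In *Rab3-GEF*, an exchange factor gene of synaptic vesicle traffic, all 4 were in coding exons with male MSL1 at folds of 1.78, 1.94, 1.25 and 2.16, and the MSL3 folds were 3.11, 3.56, 2.14 and 2.23. In *l(1)G0196* the MSL3 folds were 3.71, 5.43, 3.39 and 3.48, all in coding exons with male MSL1, and the last 2 sites had female MSL2 at folds of 2.11 and 2.24.

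Gene lists chosen by function were compared with all 2196 X-linked protein-coding genes, of which 366 (16.7%) had a site within 500 bp. Of the same 2196, 1475 had a male MSL3 peak, 1415 a male MSL2 peak and 1782 a male MSL1 peak within 500 bp. Of 14 X-linked genes of cytoplasmic ribosomal proteins, 5 had a site, whereas all 14 had a male MSL3, MSL2 and MSL1 peak within 500 bp. Besides *RpL37-1* and *RpL17* these were *RpS28b* (fold 4.26), *RpS15Aa* (fold 4.97) and *RpS5a*, which had 2 coding-exon sites of folds 5.24 and 5.06 with male MSL1 at 2.34 and 2.02. Of 7 genes of the MSL and NSL complexes and their regulators, only *Sxl* had a site, although all 7 had male MSL3, MSL2 and MSL1 peaks. Of 26 tRNA genes, 1 (*tRNA:Phe-GAA-1-2*, at the *RpL17* site) had a site, and of 2 Mediator genes, *MED22* (fold 4.4). None of 6 proteasome, 2 V-ATPase and 7 translation factor genes had one, while 4, 1 and 6 of them had a male MSL3 peak.

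The GA-rich sequence of many entry sites was about as rare at the sites as on the X chromosome at large. A GA repeat of 8 alternating bases (GAGAGAGA or AGAGAGAG on either strand) was within 100 bp of 4 summits (1.16%, 95% interval 0.452 to 2.94), against 1.97% of all windows of 201 bp on the X chromosome and 9.4% of the MSL2-associated peaks (difference −8.24 points, −10.1 to −5.9). It was at 2.95% of the MSL3 peaks of 4000 bp or more, a difference of −1.79 points whose interval includes 0 (−4.65 to 0.505), and at 6.89% of all X-linked MSL3 peaks. The 4 were in introns of *Smr* (fold 2.17) and *NFAT* (fold 2.42), in a UTR of *pico* (fold 3.03) and beside *tRNA:Ser-AGA-1-1* (fold 2.96), and none of them had male MSL1 or a female peak within 500 bp. TATCGATA was at 1 site, in *CanB* (0.29%, 0.0512 to 1.62), against 0.706% of X windows and 0.577% of the MSL2-associated peaks (difference −0.287 points, −0.942 to 1.08). CAGCTG was at 47 sites (13.6%, 10.4 to 17.6), against 8.50% of X windows and 16.3% of the MSL2-associated peaks (difference −2.7 points, −6.59 to 1.78). The median G+C content was 56.2% for both. An absent match says only that these letters are not in the window.

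A HAS, as listed by the study, was within 500 bp of 3 sites: *sno* (fold 2.34), *sw*, the dynein intermediate chain gene (fold 8.31), and *Dlic*, that of a dynein light intermediate chain (fold 2.69). HAS are bound by MSL2, so the rule itself keeps sites away from them, and these values are a description. Within 10 kb of a HAS were 130 sites (37.7%, 32.7 to 42.9) and 57.2% of the MSL2-associated peaks.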

How the data were processed

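The 6 peak lists used come from 11 of the 42 libraries in the labels. Per the methods, the authors' pipeline was cutadapt for trimming, Bowtie 2 for alignment (dm6), Picard for duplicates, a blacklist filter, and MACS2 peak calls over nonspecific IgG at a soft p of 0.01, with IDR over 2 inputs for 5 of the lists. The deposited lists give each peak's position, a score, a ratio (fold over IgG at its summit), a −log10 p and its summit offset, all as the authors computed them, and the IDR lists also carry the −log10 p of both inputs. In the 3 female lists the −log10 p of all peaks equals that of the first input, and in the male MSL2 and MSL3 lists that of 17 and 1 peaks does (tolerance 0.1%). Fold and −log10 p describe and rank peaks within a list and were not compared between lists beyond naming them side by side. The score, the −log10 q and the IDR columns were not used. The IgG libraries in the labels are from control flies; which of them served each list was not given in the sources used here. The labels name both dm6 and dm3; the positions were taken as dm6, whose X chromosome (23542271 bp) contains the last X-linked peak end (23531137).

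Gaps were counted edge to edge, with a peak taken as present within 500 bp. The fold, rank and summit given for a peak of another list are those of the peak nearest by edges. When several overlapped a site, the first in the list was taken. Genes and start sites came from Ensembl release 115 and sequence from RefSeq Release 6; 2607 of 2610 X-linked start codons read ATG. A site was named by the gene holding its summit (protein-coding first), otherwise by the nearest gene. HAS positions were those the study lists. Named were the 8 strongest sites by −log10 p, the 5 farthest from a male MSL2 summit, the 5 highest in each female list, the 5 strongest without male MSL1, the 2 nearest each limit of the rule with the 2 nearest outside it, and those at the listed gene groups; the genes with 4 sites and the sites with a GA repeat, TATCGATA or a HAS were named after their values were seen. The sites and gene lists were chosen with earlier results of these data known.

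With 1 list per protein and sex, no test between flies could be made, and intervals are 95% Wilson and Newcombe intervals over peaks. The depth is unknown. Alternatives (other gaps, widths, list lengths, summits or midpoints, joined sites) are given in the closing section. Overlap functions were tested on simulated data against bedtools 2.31.1. The software was matplotlib 3.10.9, pandas 2.3.3, scipy 1.17.1, numpy 2.4.6 and Python 3.11.15.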

Additional observations from a re-analysis of the deposited data

How the results depend on the processing

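Of 116 values recomputed under 19 other settings, 72 stayed within the 95% interval of the value reported, or within 1.5 times the count of 345. No paired analysis was possible because each list pools its libraries and no test was made. The number of sites was 767 when only the stronger 50% of the male MSL2 list counted, 698 when summits were compared in place of edges, and 147 in the stronger 50% of the male MSL3 list; it stayed between 251 and 432 otherwise. With the stronger 50% of the MSL2 list, the median MSL2 distance was 1024 bp and the shares were 86.6% for male MSL1, 6.26%, 23.2% and 22.9% for female MSL1, MSL2 and MSL3, 19.3% for start sites and 43.8% for HAS within 10 kb. With summits in the rule, they were 1552 bp, 85.8%, 16%, 38%, 31.1% and, for HAS, 50.4%. With a gap of 0 bp in the rule, the distance was 2401 bp and female MSL1, MSL2 and MSL3 were at 7.87%, 20.8% and 20.4%. With a gap of 1000 bp, the distance was 3750 bp and HAS were at 30.7%. In the stronger 50% of the MSL3 list, male MSL1 was at 81%, female MSL3 at 27.2% and the GA repeat at 0%.

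With a partner peak counted at up to 1000 bp, male MSL1 was at 82.9% and female MSL1, MSL2 and MSL3 at 8.99%, 25.5% and 22.9%. At 0 bp, female MSL2 was at 12.5%. With summits within 500 bp, male MSL1 was at 64.9% and female MSL2 at 10.1%. A male MSL1 list as short as that of MSL3 gave 35.4%. The stronger 50% of each female list gave 1.16%, 2.61% and 4.64% for MSL1, MSL2 and MSL3. A start site window of 250 bp gave 7.54% and one of 1000 bp 30.1%, and the edge-to-edge median distance to MSL2 was 1821 bp. In the stronger 50% of the sites, an alternative added after the data were seen, male MSL1 was at 80.9% and female MSL3 at 23.7%; in the weaker 50% male MSL1 was at 69.8%, female MSL2 at 12.2% and female MSL3 at 6.4%. The cause was not tested, except that a wider gap or a longer list finds more peaks by construction. For male MSL1 and the 3 female proteins, the share stayed below that of the MSL2-associated peaks, with an interval of the difference below 0, under each of these partner settings.

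The main limits are that the number of sites depends on where the male MSL2 list ends, that male MSL1 rests on 1 replicate and a long list, and that the female lists are shorter and give the −log10 p of their first input alone. A missing MSL2 peak is a missing call and does not measure absence of MSL2. Without read numbers, neither binding strength between lists nor the depth behind a missing peak can be given.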
